A study of Arabidopsis thaliana with 12 samples.

Results

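The comparison is between light-grown Arabidopsis thaliana seedlings that overexpress MINI ZINC FINGER 1 (MIF1OE) and light-grown seedlings with an empty vector, chosen by their sample titles as 6 of the 12 ATH1 arrays of the series. The other 6 arrays hold dark-grown seedlings of the same plant sources. All plants were Columbia transformants in the T2 generation, and seedlings were harvested at 7 days. MIF1OE plants carried MIF1 behind the 35S promoter, which is active in most cell types, and came from 2 transformed lines: line 124 gave 2 of the 3 light arrays and line 127 gave 1. Vector plants came from 3 transformed lines, numbers 1, 4 and 7, of the pRRR2222 vector. Every group, controls included, was selected on 50 µg/mL hygromycin, and resistant seedlings alone were harvested. All seeds were first kept for 2 days at 4 °C in darkness. The light-grown plants received light for 16 h per day at 70 to 120 µmol m-2 s-1 and 22 °C. For the dark-grown plants a light exposure of 2 h started germination, and darkness followed. Replicates of line 124 are separate samples of 1 line. The p-values measure only the spread between arrays within groups, pooled over all 12 arrays, the dark-grown ones included.

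MIF1 is a short plant protein with a zinc finger like that of the zinc finger homeodomain (ZHD) transcription factors, but without the homeodomain that binds DNA. It can pair with ZHD proteins and so keep them from acting, and seedlings with much MIF1 are known for dwarf growth and altered responses to several plant hormones. No probe set was named MIF1, MIF2, MIF3 or ZHD (0 by name), so no value could be assigned to the transgene. A probe set for it may be among the unnamed ones. The genotype therefore rests on the labels here.

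Values below are log2(intensity + 7), and effects are differences of these between MIF1OE and vector, tested with limma over 15922 probe sets. The median within-group standard deviation (SD) was 0.27 for light vector and 0.22 for light MIF1OE arrays. Deviations from the group mean correlated best between the first line 124 array and vector line 4 (r = 0.52), between the second and vector line 1 (r = 0.54), and between line 127 and vector line 7 (r = 0.44), a description over probe sets that share the authors' scaling. The dark arrays paired in the same way. What these sets are was not tested. RNA came from seedlings with all their tissues, so that fewer cells of a type and less RNA per cell cannot be told apart. Defining markers of the shoot (PSAN, PSBW and LHCB4 genes) stood at a median difference of -0.28 over 5 probe sets, while the 2 root genes tested were both positive, PYK10 at 0.05 (SE 0.16) and XTH18 at 0.74 (SE 0.44). The root hair genes EXPA7 and EXPA18 stood at -0.45 (SE 0.26) and -0.17 (SE 0.31). The 2 embryo and seed markers tested had the largest median of these marker lists, 1.19, and stood at -0.10 and 2.49. None of the markers passed the test.

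Of the 15922 probe sets, 157 passed (0.986%), 105 higher (0.659%) and 52 lower (0.327%) in MIF1OE, and 1833 had an unadjusted p below 0.05 (11.5%). Among the 157, 65 name 1 gene (39 higher, 26 lower), 2 name several and 90 are unnamed here. The 6 arrays separated without overlap for 13.8% of all probe sets, 6.83% with MIF1OE higher and 7.01% lower. Genes were grouped in 43 lists of families and pathways, which hold 26 of the named calls, and 21 lists held at least 1. The lists were compiled after the data had been seen, so list shares set beside all probe sets describe and do not test. The other 39 named calls belong to none of the lists. Lists hold only probe sets that name 1 gene, so the 90 unnamed calls could not be placed in any. For all probe sets tested the median difference was -0.01. The unnamed probe sets with the largest differences were 260226_at at 5.57 (SE 0.32) and 249082_at at 4.79 (SE 0.57) upward, 260221_at at -3.20 (SE 0.59) and 254550_at at -2.68 (SE 0.41) downward.

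Of the named genes of stored reserves and their breakdown 1 passed, and it had the largest rise of all named genes. ICL (AT3G21720), the isocitrate lyase with which a seedling turns stored oil into sugar precursors, stood at 3.72, 5.28 and 4.05 in vector lines 1, 4 and 7, at 8.57 and 7.92 on the line 124 arrays and at 8.90 on the line 127 array. All 3 MIF1OE arrays lay above the highest vector array, at vector line 4, and ICL rose by 4.11 (SE 0.40, limma adjusted p = 5.22e-04). Other genes of oil breakdown did not pass: AIM1 (AT4G29010), of fatty acid beta-oxidation, was at 0.12 (SE 0.14) and SDP1 (AT5G04040), an oil body lipase, at 0.16 (SE 0.26). No member of the list of oleosins, seed storage and late embryogenesis abundant (LEA) proteins passed (0 of 16). Among all probe sets 0.659% passed higher. Unnamed probe sets were outside this list, so genes of this kind among the unnamed calls would be missed. The median difference of the list was nevertheless 1.47. In 10 of the 16 members every MIF1OE array lay above every vector array, against 6.83% of all probe sets. Only 16 of the 26 members named on the array came through the filter, which used the mean over all 12 arrays. A member dim with the vector could pass it through high MIF1OE arrays. The filter may thus favour positive differences in this list, in light and in darkness. AT2G28490 encodes a cupin like those stored in seeds, and stood at 3.13, 4.61 and 3.69 in vector lines 1, 4 and 7, at 7.77 and 6.47 on the line 124 arrays and at 6.12 on the line 127 array. The groups did not overlap, and the difference was 2.97 (SE 0.66, limma adjusted p = 0.0597). LEA18 (AT2G35300) was at 3.02, 3.57 and 2.89 with the vector and 6.12, 5.41 and 5.44 with MIF1OE, a difference of 2.49 (SE 0.70, limma adjusted p = 0.143). AtLEA4-1 (AT1G32560), another LEA protein, differed by 1.56 (SE 0.52, limma adjusted p = 0.221). Other settings changed the call of AT2G28490, which passed with plant source as a random replicate block (limma adjusted p = 0.0471), with median-centred arrays (0.0489) and with the jointly deviating arrays as blocks (0.00532). LEA18 passed with the jointly deviating arrays as blocks (limma adjusted p = 0.0444), a fit added after seeing the data. A positive difference was found in 12 of the 16, and in 7665 of all 15922 probe sets. Among the other members of the list were COR15B (AT2G42530) at -0.71 (SE 0.26) and the oleosin OLEO3 (AT5G51210) at -0.10 (SE 0.49). In darkness 13 of the 16 passed higher and 1 lower, with 6.14% of all probe sets higher and 6.75% lower.

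Proteins that plants secrete against microbes gave 1 call in each of several families. OSM34 (AT4G11650), an osmotin of the thaumatin-like family, stood at 9.17, 8.63 and 8.21 in vector lines 1, 4 and 7, at 10.82 and 10.68 on the line 124 arrays and at 11.75 on the line 127 array. It rose by 2.42 (SE 0.30, limma adjusted p = 0.00270) with no overlap, and line 127 was highest. ChiC (AT4G19810), a class V chitinase, was at 7.01, 6.32 and 5.92 with the vector and 8.35, 8.24 and 9.39 with MIF1OE, and rose by 2.24 (SE 0.38, limma adjusted p = 0.0155). AT4G16260, a beta-1,3-glucanase, was at 8.93, 8.31 and 7.17 with the vector and 10.02, 10.06 and 10.95 with MIF1OE, and rose by 2.20 (SE 0.40, limma adjusted p = 0.0230). In these genes the third MIF1OE array, line 127, was the highest of the 6 and vector line 7 the lowest. Few relatives passed. Of 10 chitinases tested only ChiC passed (list median -0.21), of 11 thaumatin-like proteins only OSM34 (median -0.16), and of 24 beta-1,3-glucanases only AT4G16260 (median -0.16). Among all probe sets 0.659% passed higher. CHI (AT2G43570), a chitinase, was next, at 1.38 (SE 0.33, limma adjusted p = 0.0824), and passed with the jointly deviating arrays as blocks (limma adjusted p = 0.0483). AT1G78780, of the pathogenesis-related family, rose by 1.71 (SE 0.24, limma adjusted p = 0.00577) and the basic secretory protein AT2G15220 rose by 1.79 (SE 0.36, limma adjusted p = 0.0364). Among 12 trypsin inhibitors, thionins and defensins none passed, where 0.986% of all probe sets did. They pointed both ways: the defensin PDF1.2b (AT2G26020) stood at 1.66 (SE 0.50), AT2G43550 at -1.04 (SE 0.28) and the defensin-like LCR68 (AT2G02130) at -0.64 (SE 0.19).

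Beta-glucosidases, which release compounds stored as glucosides, went in both directions, with 2 of 11 higher and 1 lower, against 0.659% and 0.327% of all probe sets. BGLU45 (AT1G61810), which acts on lignin precursors, was at 5.09, 5.22 and 5.17 with the vector and 6.70, 7.11 and 6.83 with MIF1OE and rose by 1.72 (SE 0.23, limma adjusted p = 0.00416). BGLU19 (AT3G21370) was at 4.81, 4.61 and 4.04 with the vector and 7.96, 7.59 and 6.72 with MIF1OE and rose by 2.93 (SE 0.47, limma adjusted p = 0.0124). BGLU33 (AT2G32860) was at 6.56, 6.53 and 6.60 with the vector and 4.41, 5.80 and 4.32 with MIF1OE and fell by 1.72 (SE 0.32, limma adjusted p = 0.0271). Its second line 124 array lay between the other MIF1OE arrays and the vector arrays. Of 14 jacalin lectins, sugar-binding proteins some of which assemble with beta-glucosidases, 2 rose (0.659% of all probe sets). AT3G21380 was at 4.59, 3.58 and 3.16 with the vector and 7.58, 6.49 and 6.33 with MIF1OE, a rise by 3.02 (SE 0.52, limma adjusted p = 0.0183). JAL33 (AT3G16450), already bright in the vector plants, rose by 1.15 (SE 0.20, limma adjusted p = 0.0170). Of 17 berberine bridge enzyme-like oxidases 1 rose (0.659% of all probe sets), AT5G44380 by 1.26 (SE 0.26, limma adjusted p = 0.0436), while AT1G30760 and AT1G30700 stood at 1.81 (SE 0.42, limma adjusted p = 0.0675) and 1.37 (SE 0.33, limma adjusted p = 0.0858). With quantile normalization AT1G30760 passed (limma adjusted p = 0.0410), and with the jointly deviating arrays as blocks AT1G30700 did (0.0212).

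Enzymes of sulfur and redox metabolism gave isolated calls. APS4 (AT5G43780), an ATP sulfurylase, which takes the first step of sulfate assimilation, was at 7.94, 8.41 and 8.62 with the vector and 10.84, 10.09 and 10.74 with MIF1OE and rose by 2.23 (SE 0.24, limma adjusted p = 9.63e-04). Neither APS3 (AT4G14680), a second ATP sulfurylase, at -0.68 (SE 0.40), nor the sulfite reductase SIR (AT5G04590), at 0.06 (SE 0.19), passed. MSRB6 (AT4G04840), which repairs oxidised methionine, was at 8.34, 8.17 and 7.51 with the vector and 5.89, 7.03 and 5.15 with MIF1OE and fell by 1.98 (SE 0.41, limma adjusted p = 0.0436). The other methionine sulfoxide reductases had differences of 0.04 to 0.39. AT1G06830, a CC-type glutaredoxin of the plant-specific class, was at 6.97, 7.47 and 7.43 with the vector and 5.34, 6.14 and 4.75 with MIF1OE and fell by 1.88 (SE 0.38, limma adjusted p = 0.0380). Of 14 CC-type glutaredoxins 1 passed lower (0.327% of all probe sets), with a list median of -0.59. In 3 of them every MIF1OE array lay below every vector array (7.01% of all probe sets). The list median was -0.28 in line 124 and -1.29 in line 127, read against the same vector arrays. CuAO1 (AT1G62810), a copper amine oxidase that breaks down polyamines and gives off hydrogen peroxide, rose by 1.12 (SE 0.21, limma adjusted p = 0.0230). It was 1 of 5 measured, where 0.659% of all probe sets passed higher. AT3G56060, an oxidoreductase related to HOTHEAD, was at 6.75, 6.66 and 6.68 with the vector and 4.71, 4.92 and 4.54 with MIF1OE and fell by 1.97 (SE 0.18, limma adjusted p = 2.93e-04).

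Hormone-linked enzymes included AT1G12010, an ACC oxidase, the last enzyme of ethylene synthesis. It stood at 5.90, 6.19 and 5.49 in vector lines 1, 4 and 7, at 9.12 and 8.40 on the line 124 arrays and at 9.63 on the line 127 array. The groups were far apart and it rose by 3.19 (SE 0.50, limma adjusted p = 0.0101). AT1G03400, a related dioxygenase, was at 6.42, 6.95 and 6.64 with the vector and 5.40, 5.22 and 5.11 with MIF1OE and fell by 1.43 (SE 0.17, limma adjusted p = 0.00200). Of the 13 members of that family tested, 1 rose and 1 fell (0.659% and 0.327% of all probe sets), with a median of 0.40. In 6 of the 13 every MIF1OE array lay above every vector array, as in 6.83% of all probe sets. AT1G22690, a GASA peptide of the gibberellin-regulated family, was at 9.58, 10.29 and 9.70 with the vector and 7.11, 7.92 and 6.86 with MIF1OE and fell by 2.56 (SE 0.32, limma adjusted p = 0.00280). It was 1 of 3 measured, where 0.327% of all probe sets passed lower. The auxin-conjugating enzyme GH3.17 (AT1G28130) stood at 1.12 (SE 0.29, limma adjusted p = 0.108), and no auxin list member passed (0 of 5). Nor did any of the 3 gibberellin receptors, where 0.986% of all probe sets passed.

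Some genes of stomatal guard cells fell. CHX20 (AT3G53720), a cation transporter of guard cells, was at 5.85, 6.82 and 6.39 in vector lines 1, 4 and 7, at 5.25 and 4.82 on the line 124 arrays and at 4.52 on the line 127 array. It fell by 1.49 (SE 0.29, limma adjusted p = 0.0315) and no MIF1OE value reached the lowest vector value. AT4G14480, the kinase BLUS1 that carries blue light signals to stomatal opening, was at 6.52, 7.06 and 6.46 with the vector and 5.69, 5.79 and 5.07 with MIF1OE and fell by 1.16 (SE 0.22, limma adjusted p = 0.0300). FMA (AT3G24140), the FAMA factor that directs guard cell formation, was at 5.94, 6.57 and 6.39 with the vector and 5.13, 5.74 and 5.14 with MIF1OE, a difference of -0.96 (SE 0.21, limma adjusted p = 0.0590), with no overlap. It passed with plant source as a random replicate block (limma adjusted p = 0.0471) and with the jointly deviating arrays as blocks (0.0484). STOMAGEN (AT4G12970), a peptide that promotes stomata, was at -0.35 (SE 0.35). So 2 of 4 tested passed lower, against 0.327% of all probe sets, with a median of -1.06. This list was compiled with earlier results of these data known, so its share is not a test. In darkness 3 of the 4 passed lower, against 6.75% of all probe sets. These were STOMAGEN at -2.11 (SE 0.35, limma adjusted p = 0.00313), CHX20 at -1.68 (SE 0.29, limma adjusted p = 0.00400) and AT4G14480 at -1.04 (SE 0.22, limma adjusted p = 0.0117). Leaf factor YAB5 (AT2G26580), which marks the lower leaf side, was at 6.24, 6.70 and 6.91 with the vector and 5.47, 5.59 and 5.48 with MIF1OE and fell by 1.11 (SE 0.20, limma adjusted p = 0.0230). The other 3 polarity and shoot meristem factors tested did not pass, and had differences of -0.19 to 0.23.

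Signalling and cell wall genes gave further calls. AT1G51805, a leucine-rich repeat receptor kinase, was at 7.70, 7.99 and 7.58 with the vector and 6.14, 6.73 and 5.51 with MIF1OE and fell by 1.63 (SE 0.32, limma adjusted p = 0.0340). Its 6 measured neighbours in the same gene cluster did not pass. The receptor-like kinases AT1G11410 and AT5G63710 fell by 1.20 (SE 0.24, limma adjusted p = 0.0364) and by 1.14 (SE 0.22, limma adjusted p = 0.0301). TBL38 (AT1G29050), which belongs to a family that adds acetyl groups to wall polysaccharides, was at 6.55, 5.47 and 6.09 with the vector and 7.61, 8.02 and 8.22 with MIF1OE and rose by 1.92 (SE 0.27, limma adjusted p = 0.00492). Its relative TBL45 (AT2G30010) stood at -1.73 (SE 0.42, limma adjusted p = 0.0905). None of 14 expansins passed, where 0.986% of all probe sets did, and the list had a median of -0.44. EXPA8 (AT2G40610) stood at 8.95, 7.73 and 6.27 with the vector and 3.78, 7.17 and 4.19 with MIF1OE. Its second line 124 array lay among the vector arrays, and the difference was -2.60 (SE 0.78, limma adjusted p = 0.166). All 7 tubulins had a negative difference, with a median of -0.30 and 0 passing. Among all 15922 probe sets 7665 had a positive difference and 0.327% passed lower. ATSPS4F (AT4G10120), which makes sucrose phosphate, fell by 1.19 (SE 0.24, limma adjusted p = 0.0412). AT5G16240, an acyl-ACP desaturase, fell by 1.25 (SE 0.19, limma adjusted p = 0.00960). ECS1 (AT1G31580), a cell wall protein, had the largest named fall, by 3.82 (SE 0.61, limma adjusted p = 0.0122), and stood at 10.75, 10.20 and 9.34 with the vector and 6.18, 7.78 and 4.84 with MIF1OE.

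Further named calls were spread over other kinds of protein. AT4G38690, a phospholipase C-like phosphodiesterase, fell by 2.19 (SE 0.35, limma adjusted p = 0.0119). AT1G59960, an aldo-keto reductase, rose by 1.23 (SE 0.24, limma adjusted p = 0.0315) and AT3G26770, a short-chain dehydrogenase, rose by 0.96 (SE 0.19, limma adjusted p = 0.0340). AT4G18930, a cyclic phosphodiesterase, stood at 8.31, 8.27 and 7.80 with the vector and 9.24, 9.26 and 9.25 with MIF1OE. The 3 MIF1OE arrays were nearly equal, and it rose by 1.12 (SE 0.19, limma adjusted p = 0.0155). AT5G37740, with a C2 domain, rose by 1.29 (SE 0.19, limma adjusted p = 0.00812). Photosynthesis genes did not pass: the 6 photosystem and light-harvesting genes ran from -0.38 to -0.27 (median -0.32), the 3 Calvin cycle enzymes had a median of -0.30, and the 4 chlorophyll synthesis enzymes -0.12. The conjugating UDP-glucosyltransferases, 35 tested, had a median of -0.02 with 0 passing, where 0.986% of all probe sets passed.

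**Figure D1:**
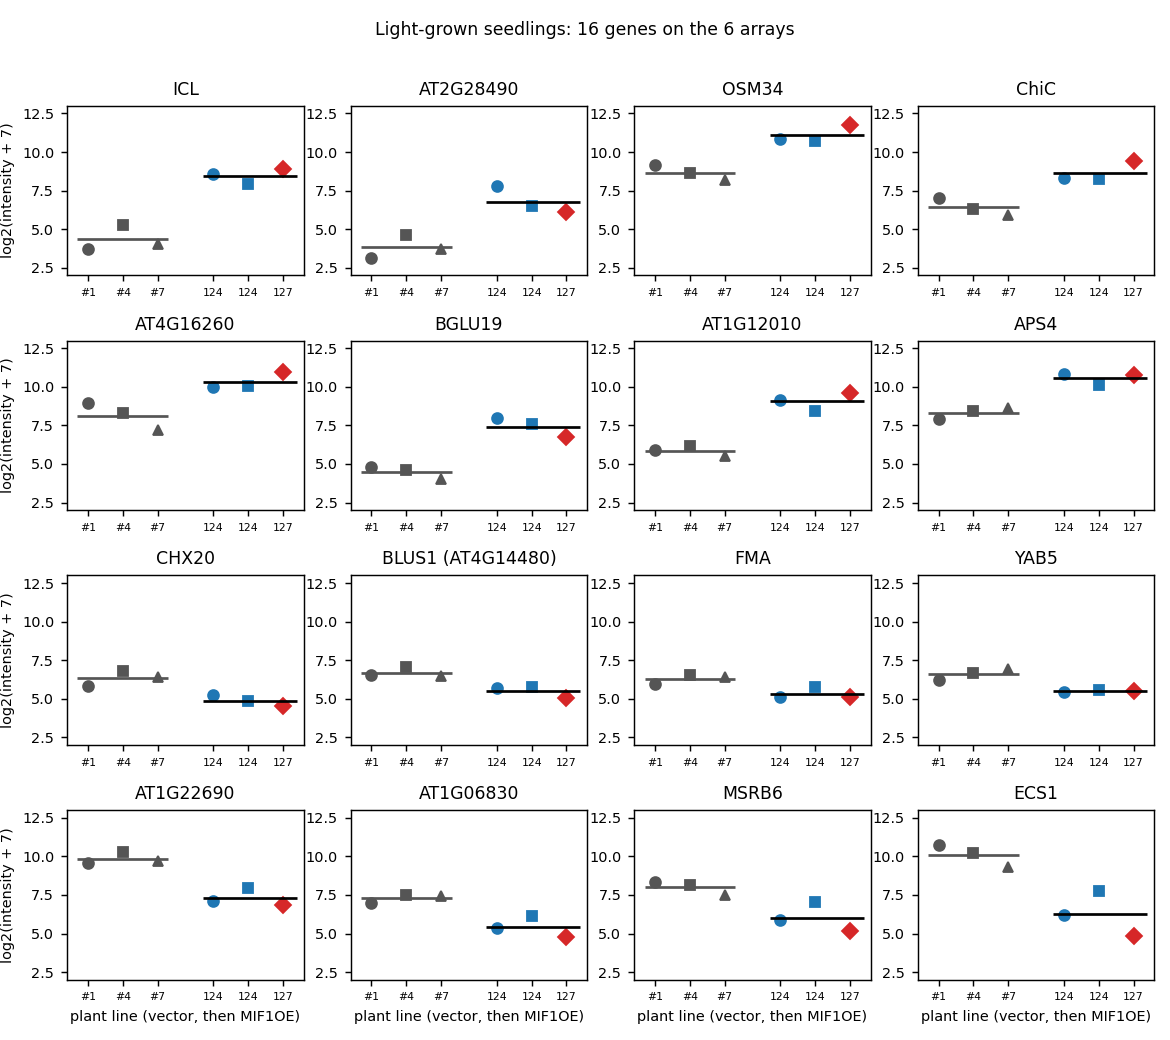
Values of 16 genes, log2(intensity + 7), on the 6 light arrays. Grey marks are vector lines 1, 4 and 7, blue marks line 124, red diamonds line 127, and horizontal lines the group means. In all 16 genes every MIF1OE array lies on the same side of every vector array, and line 127 is the highest MIF1OE array in OSM34 (11.75) and the lowest in ECS1 (4.84).

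**Figure D2:**
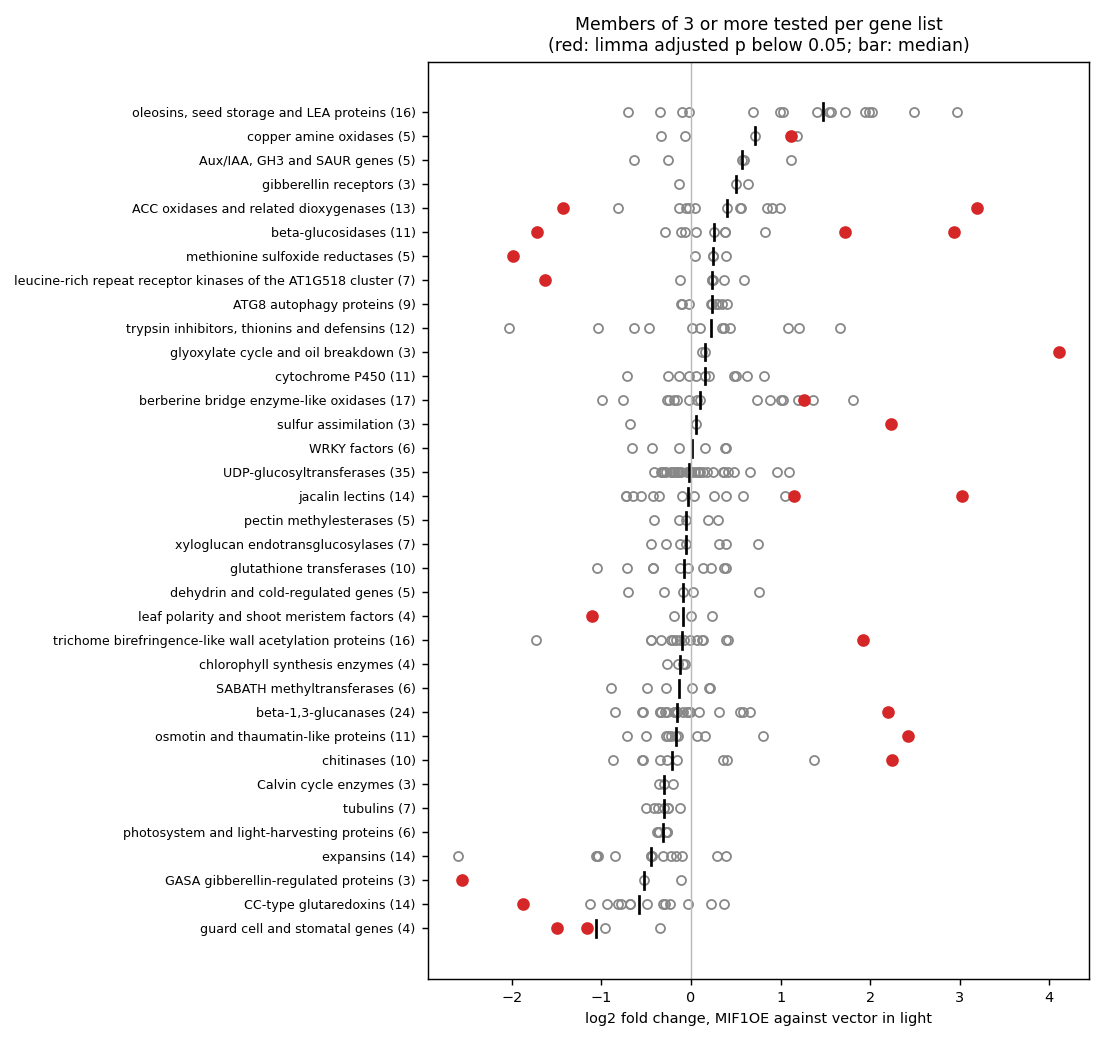
Log2 fold changes of MIF1OE against vector in light (x axis) for lists of at least 3 tested members, with the number tested in brackets. Red points passed limma at adjusted p below 0.05, open points did not, and bars are medians. Unnamed probe sets are in none of the lists. In the chitinase, thaumatin-like and glucanase lists the 1 red point lies far above a negative median, whereas the reserve list (median 1.47) has no red point and the guard cell list (median -1.06) has 2.

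The 2 MIF1OE lines were compared in a fit with their own means, in which line 127 has 1 array whose spread is assumed to be like that of the others. No probe set passed for line 127 minus line 124 in light (0 of 15922 in limma, 1069 at an unadjusted p below 0.05, or 6.71%), and the lowest adjusted p was 0.296. In darkness 0 passed as well, with 541 at an unadjusted p below 0.05 (3.4%). Each line alone against the vector arrays gave 48 calls for line 124 (0.301%) and 237 for line 127 (1.49%). The test had limited reach: the median SE of a line difference was 0.31, against 0.21 for the MIF1OE effect. In simulated arrays 8% of 2-fold and 66% of 4-fold line differences were called, so that a missing call does not show that the lines act alike.

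Among the 157 calls line 127 mostly lay further from vector, a difference not tested as a whole. The median absolute difference from the 3 vector arrays was 1.36 in line 124 and 1.91 in line 127, which share those controls. Line 127 lay further from vector than line 124 in 134 of the 157 (85.4%), 88 of 105 higher and 46 of 52 lower calls. Over all probe sets tested, line 127 differed from line 124 in the direction of the MIF1OE effect in 62.2%. The median line difference in the direction of the effect was 0.46, with a range of -1.06 to 2.14. For 118 of the 157 the 95% interval excluded a line difference as large as the effect itself, and the intervals reached a median of 0.77 to either side. Selection favours such a result, because a line difference widens the spread against which the 157 had to pass. For 27 the line 127 array lay between the line 124 arrays. With the jointly deviating arrays entered as blocks, 135 calls went the same way, with a median of 0.51. The pattern was as large with these blocks, which were drawn from the deviations of the same arrays. In darkness 106 calls went the same way, with a median of 0.18.

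The excess in line 127 was not shared by every gene. ECS1 differed from vector by -3.11 in line 124 and -5.25 in line 127, with a line difference of -2.14 (SE 0.69, limma adjusted p = 0.659, 95% interval -3.67 to -0.61). MSRB6 stood at -1.55 in line 124 and -2.86 in line 127. OSM34 stood at 2.09 in line 124 and 3.08 in line 127 and AT2G15220 at 1.37 in line 124 and 2.65 in line 127. BGLU45, at 1.75 in line 124 and 1.67 in line 127, AT4G18930, at 1.12 in line 124 and 1.12 in line 127, and YAB5, at -1.09 in line 124 and -1.14 in line 127, were nearly equal in both. BGLU19 went the other way, at 3.28 in line 124 and 2.23 in line 127, and so did the jacalin AT3G21380, at 3.26 in line 124 and 2.55 in line 127.

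The 5 named probe sets with the lowest p in each direction of the line comparison did not pass. Higher in line 127 were 2 class III peroxidases, AT4G36430, at 7.20, 6.10 and 5.67 with the vector and 6.33, 6.93 and 9.88 with MIF1OE, and AT4G30170, at 8.90, 8.04 and 8.32 with the vector and 9.58, 9.28 and 11.38 with MIF1OE. Their line differences were 3.25 (SE 0.58, limma adjusted p = 0.449, 95% interval 1.96 to 4.54) and 1.95 (SE 0.38). AT1G61840, the conjugating enzyme UGT71C2 (AT2G29740) and AT1G22180 differed by 2.06, 1.15 and 1.06. Lower in line 127 was the jacalin AT1G52060, at 8.52, 8.27 and 7.93 with the vector and 8.39, 8.22 and 5.93 with MIF1OE, with a line difference of -2.38 (SE 0.34, limma adjusted p = 0.308, 95% interval -3.14 to -1.62). The pectin methylesterase inhibitor-like AT4G25250, the zinc finger factor JKD (AT5G03150) of the root ground tissue, AT5G60530 and AT5G61300 differed by -1.83, -1.94, -1.46 and -1.45. In darkness the line difference of AT1G52060 was 0.10 and that of AT4G36430 1.36.

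Agreement was also read with no array in common. Probe sets were called for line 124 against 2 vector lines, without the line 127 array, and then read as line 127 minus the vector array left out. Each vector line was left out in turn. The turns used the same line 124 arrays and the same line 127 array, so they are not independent. With vector line 1 left out 59 were called, and 57 (96.6%) had the same direction in line 127, against 51.5% of all probe sets. With vector line 4 left out 29 were called and 25 (86.2%) kept it, against 53%, and with vector line 7 left out 31 were called and all 31 kept it, against 57.1%. At least 2-fold in that direction were 51, 24 and 29 of these, where 7.67%, 7.07% and 6.73% of all probe sets were. The medians in line 127, toward the direction of line 124, were 1.96, 2.61 and 2.85. Line 127 and vector line 7 deviate together, as given above.

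**Figure D3:**
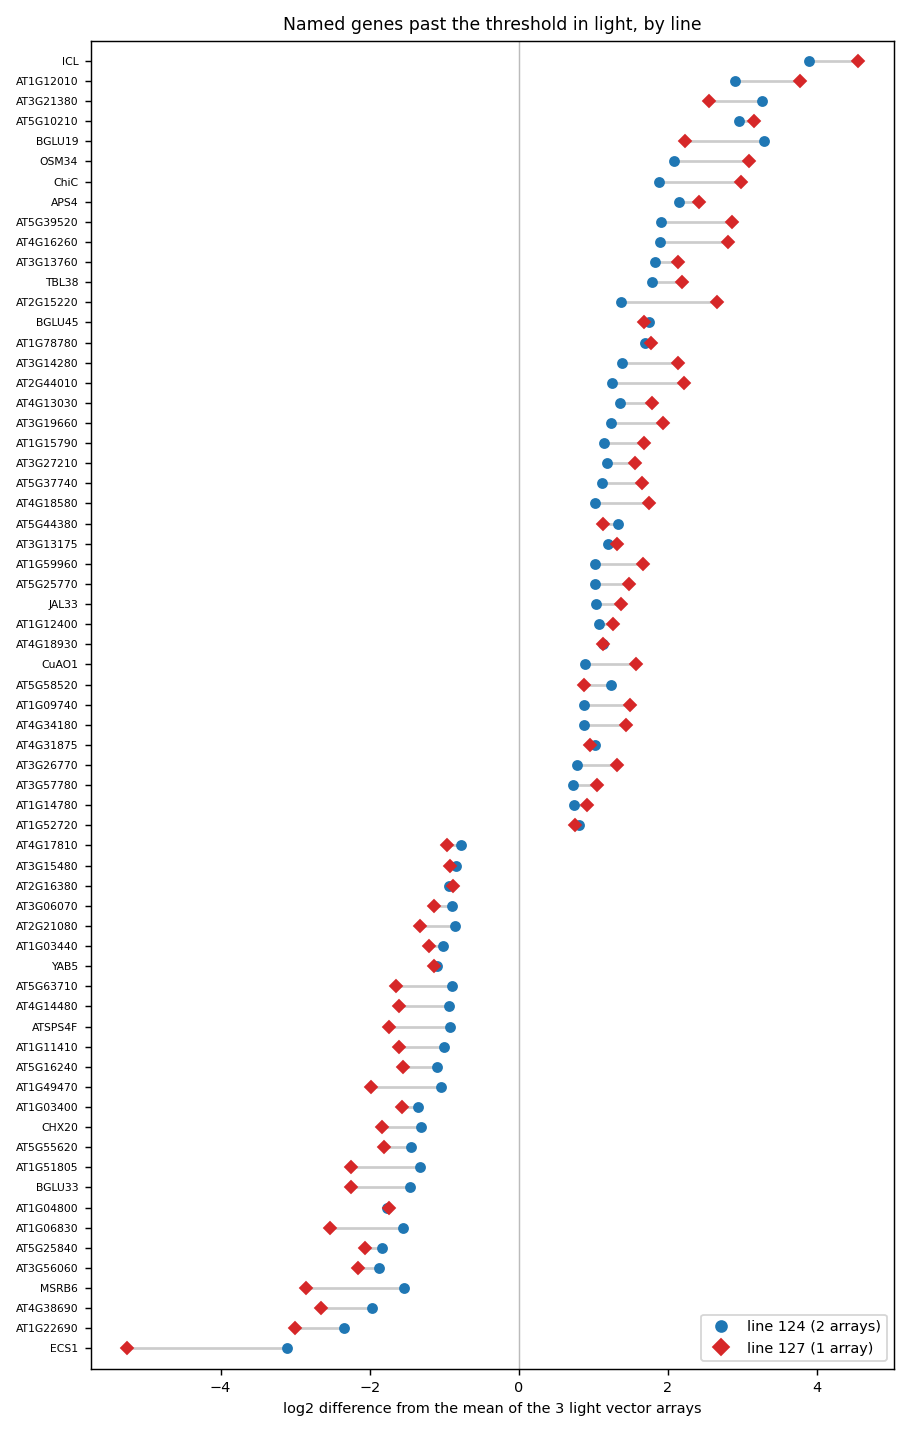
Difference from the mean of the 3 light vector arrays (x axis, log2) for the 65 named genes that passed, in line 124 (blue, mean of 2 arrays) and line 127 (red, 1 array). The lines share the vector arrays, and selection fixed the common side of 0. Line 127 lies further out for ECS1 and OSM34, and line 124 for BGLU19 (3.28 against 2.23).

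Effects in darkness were set beside these for the same genes. Of the 65 named calls, 36 also passed in darkness in the same direction, 1 in the opposite direction, and 28 did not pass, where 12.9% of all probe sets passed. Both effects share 1 estimate of spread per probe set, so selection in light also favours calls in darkness. The difference between dark and light effects itself passed for 118 of 15922 probe sets (0.741%), and for 13 of the 157 light calls, 6 of them named. In 11 of the 13 the effect was nearer 0 or opposite in darkness. Selection partly favours this, because the 13 were chosen by a large light effect, which the difference subtracts. TBL38 (AT1G29050) stood at 1.92 (SE 0.27) in light and -0.0022 (SE 0.27) in darkness. AT3G06070 was the named exception, lower in light at -0.98 (SE 0.19, limma adjusted p = 0.0315) and further lower in darkness at -2.86 (SE 0.19, limma adjusted p = 8.00e-06). BGLU45 and JAL33 rose in light but stood at 0.18 (SE 0.23, limma adjusted p = 0.672) and 0.15 (SE 0.20, limma adjusted p = 0.666) in darkness, and for these the difference did not pass.

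**Figure D4:**
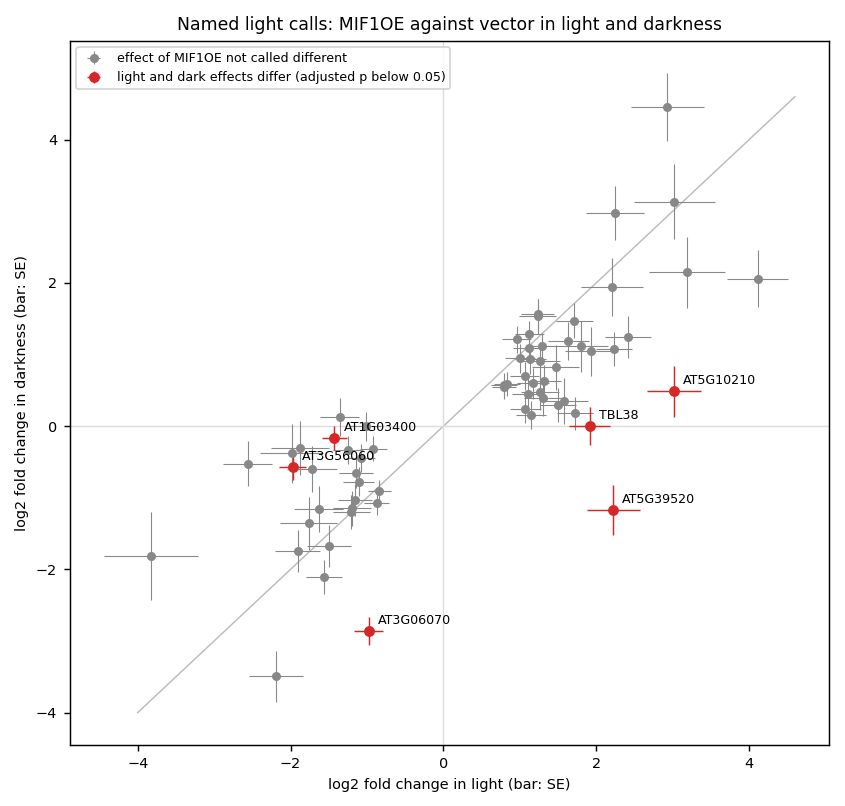
Effect of MIF1OE in light (x axis) and in darkness (y axis), log2 with SE bars, for the 65 named light calls. Red points are the 6 genes whose effects differ (limma adjusted p below 0.05), and the diagonal marks equal effects. AT5G39520 lies on opposite sides of 0 (2.22 in light, -1.17 in darkness).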

How the data were processed

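RNA of seedlings was hybridised to Affymetrix ATH1 arrays. The deposited values are linear intensities that the authors made with GCOS, per the submitters' processing notes (version: not given in the sources used here). Trimmed by 2% at each end, the mean was 150.01 on every array, so this scaling was kept. From the 22810 probe sets, 64 controls and the 6824 below the 30th percentile of the mean log2 value were left out. Values were log2(intensity + 7), a scale that understates changes of dim probe sets. Tests were limma 3.58.1 (R 4.3.3) contrasts on all 12 arrays with 4 group means, or 6 means for lines, with Benjamini-Hochberg adjustment over 15922 probe sets and a threshold of 0.05. The number of arrays limits the precision, and no 2 arrays held identical values. Standard errors (SE) are moderated.

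Names come from the platform annotation and a RefSeq table, and 54.9% of tested probe sets name 1 gene. No table used here gives gene descriptions, so gene lists planned by description were recompiled from symbols and loci after the data had been seen, and roles are background knowledge. Members and lists were chosen with earlier results of these data known. Named genes were light calls with 1 name, up to 3 members per list that did not pass (lowest p first), and the 5 lowest p per direction for the lines. Alternatives changed the pseudocount, filter, scaling, arrays in the fit and replicate block, and left out each array. In simulated arrays 58% of 2-fold and 92% of 4-fold light changes were called.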

Additional observations from a re-analysis of the deposited data

Results flagged for a closer look

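In 6 named light calls MIF1OE had unlike effects in light and darkness by the test of the difference itself. AT5G39520 stood at 2.22 (SE 0.35) in light and -1.17 (SE 0.35) in darkness, a dark minus light difference of -3.40 (SE 0.49, limma adjusted p = 0.00980). AT5G10210 stood at 3.02 (SE 0.36) in light and 0.49 (SE 0.36) in darkness, a dark minus light difference of -2.53 (SE 0.50, limma adjusted p = 0.0446). AT3G56060, the HOTHEAD-related oxidoreductase, stood at -1.97 (SE 0.18) in light and -0.57 (SE 0.18) in darkness, a dark minus light difference of 1.40 (SE 0.25, limma adjusted p = 0.0285). AT3G06070 stood at -0.98 (SE 0.19) in light and -2.86 (SE 0.19) in darkness, a dark minus light difference of -1.88 (SE 0.27, limma adjusted p = 0.00935). TBL38, of the wall acetylation family, stood at 1.92 (SE 0.27) in light and -0.0022 (SE 0.27) in darkness, a dark minus light difference of -1.92 (SE 0.38, limma adjusted p = 0.0413). AT1G03400, the dioxygenase, stood at -1.43 (SE 0.17) in light and -0.16 (SE 0.17) in darkness, a dark minus light difference of 1.26 (SE 0.24, limma adjusted p = 0.0368). In each, 3 arrays per group and condition were compared.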

How the results depend on the processing

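The 157 light calls kept their direction under every setting in which they were tested. The count was 103 with the 50th percentile filter and 57 when the dark arrays were kept out of the fit (8 of them lower). It ranged from 45 to 265 when single light arrays were left out: 93 without vector line 4, 68 and 265 without the first and second line 124 arrays, and 45 without line 127. With plant source as a random replicate block it was 180. Fits added after seeing the data gave 412 with the jointly deviating arrays as blocks, 48 for line 124 alone (0.301% of all) and 237 for line 127 alone (1.49%). No other planned setting moved it by over 1.5 times: pseudocounts 1 and 32 gave 151 and 159, no filter 149, and both median centring and quantile normalization 177. Of the 65 named calls, 9 passed under every planned setting in which they were tested: ICL, APS4, OSM34, AT1G22690, AT3G56060, AT5G10210, AT1G03400, AT1G78780 and BGLU45. The 50th percentile filter left 43 of the 65 to test, and AT3G56060, AT5G10210, AT1G03400 and AT1G78780 were not among them. The other 56 were lost under at least 1, 52 of them without line 127 and 49 without the dark arrays. The line comparison gave 0 calls in all settings except pseudocount 1, where 1 passed (lower in line 127). The 13 light calls whose effect differed in darkness became 20 with a fixed replicate block by plant source and 6 to 14 without single arrays, the low of 6 without either dark line 124 array. The cause was not tested. Genes near 0 that did not pass changed sign when single arrays were left out: AT2G14900 (-0.254 to 0.12), COR47 (-0.244 to 0.157), EXPA18 (-0.328 to 0.0901), GID1C (-0.414 to 0.224), HEMA2 (-0.187 to 0.0921), LHCB4.2 (-0.695 to 0.09), OLEO3 (-0.179 to 0.0015), PMEPCRF (-0.108 to 0.388), PYK10 (-0.0512 to 0.198), SDP1 (-0.0369 to 0.473), SIR (-0.0704 to 0.195), STOMAGEN (-0.649 to 0.0803), YAB3 (-0.195 to 0.119). OLEO3 was also at 0.0149 with quantile normalization. Dim probe sets and 3 arrays per group limit small differences.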
